A study of Homo sapiens with 26 samples.

Results

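AURKA encodes Aurora-A, a serine/threonine kinase that matures centrosomes and builds the mitotic spindle and that is often overexpressed in breast cancer. Aurora-A is activated at the spindle by its partner TPX2, works in the cytoplasm and at centrosomes, and is also found in the nucleus of tumour cells. The study directed AURKA to different compartments of MDA-MB-231Luc, which is MDA-MB-231 with luciferase. MDA-MB-231 is a mesenchymal-like human line from triple-negative breast cancer, used as a metastatic model in mice. The comparison described here sets all 6 lines that carry AURKA cDNA against all 3 lines that do not, whatever the compartment. It takes in 17 libraries of AURKA clones and 9 libraries of control lines, which are all 26 libraries and all 9 lines of the series.

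The AURKA clones are WT-AURKA c1 and c2 (no added signal), NES-AURKA c1 and c2 (nuclear export signal) and NLS-AURKA c2 and c3 (nuclear localization signal). There are 3 libraries per clone, but 2 for WT-AURKA c2. They carry a guide against AURKA together with an AURKA cDNA tagged MUT1 or MUT2 in the labels: sgAURKA2 with MUT2 in the WT-AURKA and NES-AURKA clones, and sgAURKA1 with MUT1 in the NLS-AURKA clones. They were at passages 32 to 35. The control lines are Empty, NES-Empty and NLS-Empty, with 3 libraries each, the guide sgCon, a vector without AURKA cDNA and passages 19 to 20. All 9 lines share the doxycycline-responsive vector with mRFP, the luciferase background, MEM with 10% serum, normoxia and doxycycline at 0.1 to 1 mg/ml, the units being those of the labels. The presence of AURKA cDNA cannot be told apart from the guide, the passage number or the growth of each AURKA line from its own clone. The clones of 1 construct share a guide and a cDNA, so the 6 clones are not 6 independent replicates of the arm. The test below treated the 6 clones as independent, so its standard errors and adjusted p values may be too small. Among the AURKA clones, the nuclear localization signal cannot be told apart from sgAURKA1 and MUT1, which only the NLS-AURKA clones carry.

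Each line entered as 1 value per gene, the mean over its libraries of log2(RPKM + 1), where RPKM is reads per kilobase of transcript, scaled to library depth. RPKM values printed for a line are plain means over its libraries, so a single high library can raise them. Without 1 library, the highest clone's RPKM moved by over 1.5 times for 12 of the 98 genes named. Other clones or control lines moved as much for some genes, among them the control lines for PSG9, PSG5, PSG1, LAMA1, FN1 and CDH1. Control values below follow the order Empty, NES-Empty, NLS-Empty. Differences are AURKA clones minus control lines on the log2(RPKM + 1) scale with the standard error of limma, and genes with an adjusted p under 0.05 (Benjamini-Hochberg) are termed called. The estimated depth was 12.2 to 19.6 M reads (megareads) per library in the AURKA clones and 13.9 to 20.3 M reads in the control lines. The 8 libraries lettered A to H (16.7 to 20.3 M reads) were deeper than the 18 lettered I to Z (12.2 to 16.7 M reads). The letters may mark separate batches, and WT-AURKA c2 has no library in the first set. Of 12 markers of MDA-MB-231 and other mesenchymal-like basal lines all were detected, with summed levels of 1749 to 2299 RPKM in the AURKA clones and 1407 to 1423 RPKM in the control lines. ESR1 and PGR, the steroid receptors that triple-negative tumours lack, were under 0.5 RPKM in every library. They were the only 2 of 14 luminal breast markers to be so. The luminal markers summed to 401 to 497 RPKM in the AURKA clones and 435 to 478 RPKM in the control lines, led by KRT18, KRT19 and KRT8. Among markers of other cell types, 6 of the 9 leukocyte markers with values stayed under 0.5 RPKM in every library (PTPRC, CD3E and CSF1R among them). So did 5 of the 12 endothelial markers (CDH5, VWF, TEK, CLDN5 and ERG). The summed leukocyte markers were 0.977 to 2.44 RPKM in the AURKA clones and 0.552 to 0.963 RPKM in the control lines, and the summed endothelial markers 39.6 to 74.3 RPKM in the AURKA clones and 28.2 to 30.1 RPKM in the control lines, led by ESAM, ROBO4 and EGFL7. Fibroblast markers summed to 0.481 to 0.906 RPKM in the AURKA clones and 0.751 to 1.38 RPKM in the control lines, with COL1A2, COL3A1 and PDGFRA under 0.5 RPKM throughout, and adipocyte markers stayed under 1 RPKM in sum.

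The arms differed across much of the transcriptome. Of 12589 genes tested, 2423 (19.2%) were called, 1114 (8.85%) of them higher and 1309 (10.4%) lower in the AURKA clones. Line means did not overlap for 3638 genes (28.9%): all 6 clones lay above all 3 control lines for 1619 (12.9%) and below them for 2019 (16.0%). At the level of single libraries, all 17 AURKA libraries lay on 1 side of all 9 control libraries for 457 genes (3.63%), 216 of them higher and 241 lower. Of the genes without overlap, 2329 were also called, and 94 genes were called in spite of an overlap. Without NES-Empty, Empty or NLS-Empty the calls numbered 934, 1032 and 915, whereas leaving out a clone left 1811 to 2669.

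Most non-overlapping genes were separated by a small distance. The gap, defined as the distance between the nearest clone and the nearest control line, had a median of 0.14 on the log2 scale over the 3638 genes. It reached 1, a 2-fold difference in RPKM + 1, for 33 higher and 37 lower genes, and 2 for 3 higher and 6 lower genes. The 10 genes that just met the rule had gaps of 0.000113 to 0.000403 and a median absolute log2 difference of 0.14, and the 10 that just failed it had one of 0.33, so the edge of the rule does not mark the size of a difference. Because the rule and the test read the same values, the calls among these genes are no independent support for the separation.

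Among the genes with the largest gaps, those higher in the AURKA clones ranged from genes close to silent in the control lines to surface and secreted proteins. SH3BGRL, an X-linked gene for a small thioredoxin-fold adaptor protein, was at 18.5 to 24.1 RPKM in the AURKA clones (median 21.03) and 0.142, 0.308 and 0.173 RPKM in the control lines. Its log2 difference of 4.19 ± 0.11 (adjusted p = 1.79e-08) went with the widest gap, 3.89, and the libraries of the 2 arms did not overlap (12.9 to 26.9 RPKM in the AURKA libraries and 0.0213 to 0.407 RPKM in the control libraries). ARMCX2, one of a cluster of X-linked armadillo-repeat genes, was at 7.91 to 11.4 RPKM in the AURKA clones (median 9.403) and 1.16, 0.865 and 1.15 RPKM in the control lines, a log2 difference of 2.35 ± 0.11 (adjusted p = 3.00e-06). The clones kept within a narrow band for both genes and lay far above every control line. MAGED2, an X-linked MAGE-family gene, was at 43.6 to 50.7 RPKM in the AURKA clones (median 48.4) and 12.03, 15.3 and 13.2 RPKM in the control lines. MAGED2 differed by 1.74 ± 0.11 on the log2 scale (adjusted p = 1.55e-05). GNG11, which encodes a G-protein gamma subunit, was at 9.58 to 19.3 RPKM in the AURKA clones (median 12.2) and 2.68, 3.05 and 2.47 RPKM in the control lines, with the WT-AURKA clones highest. GNG11 differed by 1.94 ± 0.23 on the log2 scale (adjusted p = 0.000661).

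Several of the other higher genes encode surface or secreted proteins. SRGN, serglycin, the core protein of secretory-granule proteoglycans, was at 32.96 to 178 RPKM in the AURKA clones (median 111) and 9.69, 10.3 and 3.09 RPKM in the control lines (adjusted p = 0.000806), with NES-AURKA c1 at 32.96 RPKM well below the other clones and still above each control line. ROBO4, a guidance receptor best known from blood vessels, was at 4.59 to 11.8 RPKM in the AURKA clones (median 6.77) and 0.787, 0.854 and 0.921 RPKM in the control lines (log2 difference 2.14 ± 0.26, adjusted p = 0.000779). Of the other endothelial markers, CDH5 and VWF were near 0 in all lines, but TIE1 was at 0.128 to 2.102 RPKM in the AURKA clones and 0.00895 to 0.0234 RPKM in the control lines. ENG was at 0.122 to 2.40 RPKM in the AURKA clones and 0.036 to 0.0748 RPKM in the control lines. The part of other cells in the ROBO4 difference was not tested. SHISA2, an endoplasmic reticulum protein that restrains Wnt and FGF receptors, was at 3.89 to 9.52 RPKM in the AURKA clones (median 5.88) and 0.644, 1.01 and 0.765 RPKM in the control lines (adjusted p = 0.00105). AOX1, an aldehyde oxidase, was at 8.88 to 27.2 RPKM in the AURKA clones (median 11.7) and 2.85, 2.21 and 3.32 RPKM in the control lines (adjusted p = 0.00267), with the NLS-AURKA clones highest. CCDC69, a coiled-coil protein, was at 5.27 to 12.1 RPKM in the AURKA clones (median 5.88) and 1.14, 1.56 and 1.51 RPKM in the control lines (adjusted p = 0.0016997). TMEM71, a transmembrane protein gene, was the only other gene besides SH3BGRL that was under 0.5 RPKM in every control line and at 5 RPKM or more in every clone (5.46 to 7.56 RPKM in the AURKA clones (median 6.49) and 0.208, 0.367 and 0.168 RPKM in the control lines, adjusted p = 3.00e-06).

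The genes with the largest gaps in the other direction included placental glycoproteins and genes of epithelial cells. PSG9, a pregnancy-specific glycoprotein secreted by the placenta, was at 0.0982 to 0.388 RPKM in the AURKA clones (median 0.291) and 23.6, 29.5 and 24.4 RPKM in the control lines, a log2 difference of -4.04 ± 0.11 (adjusted p = 1.79e-08). PSG5 was at 0.272 to 0.478 RPKM in the AURKA clones (median 0.366) and 8.14, 14.6 and 9.95 RPKM in the control lines and PSG1 at 0.0801 to 0.148 RPKM in the AURKA clones (median 0.1199) and 4.24, 7.497 and 3.98 RPKM in the control lines, and all 3 genes were under 0.5 RPKM in each clone. AC006262.5, a symbol with no annotation in the tables used, showed the same step, with 0.0273 to 0.409 RPKM in the AURKA clones (median 0.188) and 18.4, 17.4 and 18.6 RPKM in the control lines. The control values of these 4 genes were raised by libraries E, C and G. Without these libraries the control lines were at 9.12, 12.3 and 12.9 RPKM for PSG9 and 2.95, 6.03 and 5.36 RPKM for PSG5. They were at 1.88, 2.94 and 1.78 RPKM for PSG1 and 8.34, 8.34 and 9.90 RPKM for AC006262.5. HKDC1, a hexokinase-like enzyme of glucose phosphorylation, was at 0.862 to 11.6 RPKM in the AURKA clones (median 4.37) and 82.8, 88.2 and 84.1 RPKM in the control lines (log2 difference -4.14 ± 0.48, adjusted p = 0.000624), and no clone came near the control lines. SPNS2, the exporter of sphingosine-1-phosphate, was at 1.32 to 6.51 RPKM in the AURKA clones (median 3.94) and 19.6, 25.1 and 21.9 RPKM in the control lines (adjusted p = 0.000794). FAM49A, also known as CYRIA, a RAC1-binding protein that restrains actin branching, was at 2.01 to 3.13 RPKM in the AURKA clones (median 2.25) and 11.6, 14.6 and 13.2 RPKM in the control lines. FAM49A differed by -2.08 ± 0.11 on the log2 scale (adjusted p = 6.64e-06). AQP3, a water and glycerol channel, was at 1.68 to 3.45 RPKM in the AURKA clones (median 2.15) and 12.4, 12.9 and 16.9 RPKM in the control lines (adjusted p = 3.77e-05). BICC1, an RNA-binding protein, was at 2.15 to 4.74 RPKM in the AURKA clones (median 3.78) and 17.9, 15.4 and 18.1 RPKM in the control lines (adjusted p = 0.000176). IL24, a cytokine of the IL-10 family, was at 1.24 to 4.62 RPKM in the AURKA clones (median 2.83) and 21.3, 17 and 24.2 RPKM in the control lines (adjusted p = 0.000506). The IL24 call was lost in the A to H libraries (log2 difference -1.13, adjusted p = 0.318), where library H of NLS-AURKA c2 had 9.11 RPKM, above library C of NES-Empty at 4.19 RPKM and library G of NLS-Empty at 5.63 RPKM.

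**Figure D1:**
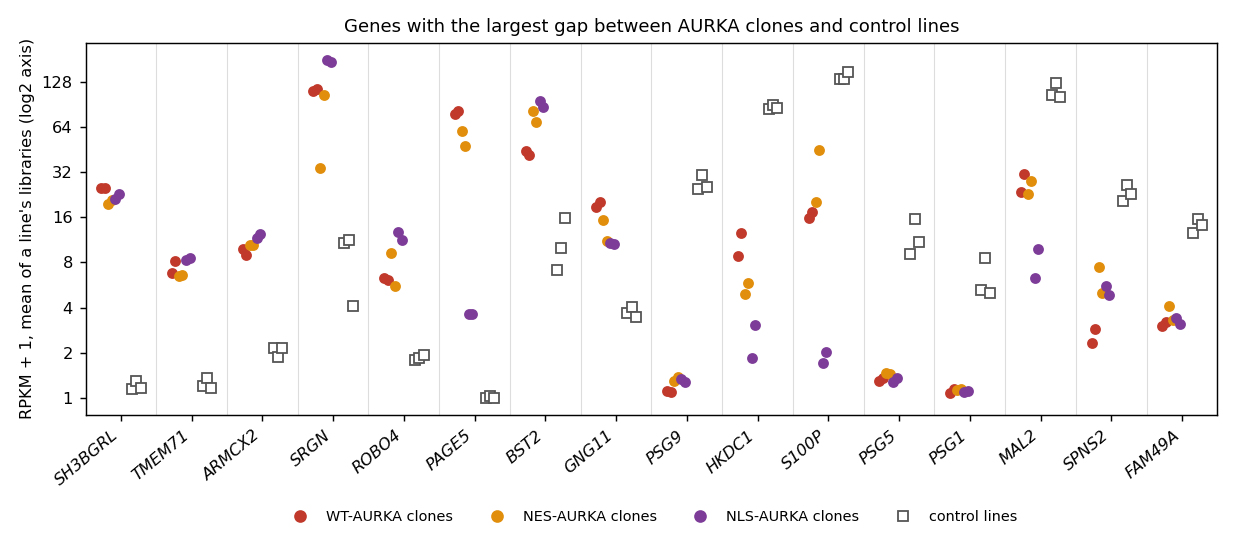
RPKM + 1 (log2 axis) of the genes with the largest gaps in either direction, 1 point per line, with AURKA clones as filled circles coloured by construct and control lines as open squares. The circles and squares of a gene do not overlap in any column. SH3BGRL and PSG9 show the widest gaps, and PAGE5, S100P and HKDC1 the widest spread among the clones.

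The promoter windows of 5 genes show how these genes differ in sequence at their starts. They are RefSeq windows (build GRCh38.p14) from 250 bases before to 50 after the transcription start, 5′ to 3′ on the gene's strand, with CG dinucleotides in capitals because CG density separates broadly used from tissue-restricted promoters. SH3BGRL (chrX:81201852-81202151, plus strand) and ARMCX2 (chrX:101659801-101660100, minus strand) were the X-linked genes of the widest gaps. PSG5 (chr19:43186487-43186786, minus strand) and HKDC1 (chr10:69220082-69220381, plus strand) were among the genes that fell furthest, and OCLN (chr5:69492297-69492596, plus strand, the first of 2 windows) encodes occludin, a tight-junction protein that fell by a moderate amount in every clone.
SH3BGRL: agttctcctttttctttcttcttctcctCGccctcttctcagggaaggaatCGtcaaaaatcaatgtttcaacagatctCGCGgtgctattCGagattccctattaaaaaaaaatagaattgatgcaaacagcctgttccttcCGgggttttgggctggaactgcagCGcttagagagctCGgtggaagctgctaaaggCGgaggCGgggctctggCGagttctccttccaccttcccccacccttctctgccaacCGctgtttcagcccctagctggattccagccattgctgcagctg
ARMCX2: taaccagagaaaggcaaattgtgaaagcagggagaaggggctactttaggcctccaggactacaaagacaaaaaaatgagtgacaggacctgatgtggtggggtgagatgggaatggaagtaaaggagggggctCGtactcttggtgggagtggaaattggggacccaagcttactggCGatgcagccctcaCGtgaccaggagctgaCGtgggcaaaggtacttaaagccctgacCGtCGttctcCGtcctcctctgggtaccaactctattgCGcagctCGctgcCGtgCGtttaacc
PSG5: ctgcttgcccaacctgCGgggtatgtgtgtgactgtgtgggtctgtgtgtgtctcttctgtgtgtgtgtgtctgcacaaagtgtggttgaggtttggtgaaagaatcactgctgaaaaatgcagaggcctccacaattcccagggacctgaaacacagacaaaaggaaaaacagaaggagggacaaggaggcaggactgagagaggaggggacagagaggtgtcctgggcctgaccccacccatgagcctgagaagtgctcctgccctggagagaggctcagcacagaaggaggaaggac
HKDC1: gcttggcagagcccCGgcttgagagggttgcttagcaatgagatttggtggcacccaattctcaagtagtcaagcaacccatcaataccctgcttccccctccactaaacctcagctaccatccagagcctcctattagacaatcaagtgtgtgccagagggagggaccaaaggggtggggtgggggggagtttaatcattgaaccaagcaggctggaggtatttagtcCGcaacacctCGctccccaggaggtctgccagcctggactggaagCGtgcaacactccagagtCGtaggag
OCLN: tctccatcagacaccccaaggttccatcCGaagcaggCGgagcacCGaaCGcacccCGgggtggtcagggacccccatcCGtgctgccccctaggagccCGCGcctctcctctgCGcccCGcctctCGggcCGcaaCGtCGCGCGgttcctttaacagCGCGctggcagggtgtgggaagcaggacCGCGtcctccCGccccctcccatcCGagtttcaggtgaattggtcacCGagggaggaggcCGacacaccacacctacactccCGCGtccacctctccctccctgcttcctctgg

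The windows hold 12 CG dinucleotides for SH3BGRL, 11 for ARMCX2, 1 for PSG5, 5 for HKDC1 and 26 for OCLN, against a median of 14 over 35116 RefSeq windows of the same length. Of all windows, 10.97% hold no more than the 1 CG of PSG5, and 30.1% hold at least as many as OCLN. None of the 5 windows contains TATAAA on either strand, a motif found in 11.5% of all windows. The counts describe these letters and say nothing about which factors bind there.

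Genes of the X-linked BEX, ARMCX and TCEAL clusters, small proteins of signalling and transcription elongation that are often silenced in tumours, were higher as a group. Of 15 tested members, which include the neighbouring GPRASP and MAGED genes, 10 were called higher (66.7%, against 8.85% of all genes) and none lower. Their median log2 difference was 0.86 against -0.02 over all tested genes. Over the tested genes of the X, 25.1% were called higher and the median log2 difference was 0.37. How far the list follows this wider shift of the X was not tested. MAGED1 was at 5.23 to 12.8 RPKM in the AURKA clones (median 8.63) and 1.73, 2.11 and 2.31 RPKM in the control lines (log2 difference 1.56 ± 0.23, adjusted p = 0.00215), and ARMCX1 at 14.7 to 26.3 RPKM in the AURKA clones (median 19.05) and 8.43, 8.699 and 7.97 RPKM in the control lines. ARMCX1 differed by 1.11 ± 0.18 on the log2 scale (adjusted p = 0.00305). GPRASP2, which sorts G-protein-coupled receptors, was at 2.22 to 3.597 RPKM in the AURKA clones (median 2.54) and 0.875, 1.12 and 1.05 RPKM in the control lines (adjusted p = 0.00157). The WT-AURKA and NES-AURKA clones were above the NLS-AURKA clones for MAGED1, whereas GPRASP2 had its highest levels in the NLS-AURKA clones. With any 1 control line left out 6 members were called.

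Most pregnancy-specific glycoprotein genes fell. Of 11 tested members of the PSG and CEA families, 9 were called lower (81.8%, against 10.4% of all genes) and none higher. Their median log2 difference was -0.92, and 9 were called with any 1 line left out. Beside PSG9, PSG5 and PSG1, PSG4 was at 0.558 to 0.852 RPKM in the AURKA clones (median 0.663) and 2.26, 2.37 and 1.98 RPKM in the control lines (log2 difference -0.92 ± 0.09, adjusted p = 0.000253), and PSG6 did not exceed 0.0425 RPKM in a clone against 0.863, 1.56 and 0.901 RPKM in the control lines. These genes are near-identical copies on chromosome 19, so reads may have been split among them and the share of each is uncertain.

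Genes of epithelial junctions and polarity were lower in the AURKA clones. Of 27 tested members 16 were called lower (59.3%, against 10.4% of all genes) and none higher, with a median log2 difference of -0.79. The fall covered tight junctions, with OCLN at 3.94 to 5.19 RPKM in the AURKA clones (median 4.68) and 16.5, 15.7 and 15.5 RPKM in the control lines (log2 difference -1.59 ± 0.09, adjusted p = 6.64e-06), MARVELD2 (tricellulin) at 0.926 to 1.71 RPKM in the AURKA clones (median 1.38) and 4.21, 4.07 and 3.91 RPKM in the control lines (adjusted p = 0.000549) and CLDN1 (claudin-1) at 2.45 to 5.97 RPKM in the AURKA clones (median 4.91) and 19.7, 17.7 and 21.2 RPKM in the control lines (adjusted p = 0.000314). It covered apical identity, with CRB3, a Crumbs polarity protein, at 0 to 0.163 RPKM in the AURKA clones (median 0.0866) and 1.55, 1.51 and 1.39 RPKM in the control lines (adjusted p = 1.77e-05) and MAL2, an apical transport protein, at 5.32 to 29.996 RPKM in the AURKA clones (median 22.3) and 103, 124 and 100.4 RPKM in the control lines (adjusted p = 0.00338). EPCAM, the epithelial cell adhesion molecule, was at 2.04 to 2.98 RPKM in the AURKA clones (median 2.23) and 11.2, 13.4 and 12.2 RPKM in the control lines. EPCAM differed by -1.96 ± 0.11 on the log2 scale (adjusted p = 8.75e-06). CDH1 (E-cadherin) was at 0.03202 to 0.294 RPKM in the AURKA clones (median 0.07598) and 1.37, 5.97 and 3.59 RPKM in the control lines (adjusted p = 0.000871). The CDH1 control values rested on libraries E, C and G, at 3.14, 15.5 and 9.04 RPKM. Without these libraries they were 0.492, 1.22 and 0.860 RPKM. For OCLN and EPCAM the 6 clones lay within a narrow band and were all below the lowest control line. In bulk RNA, fewer cells of an epithelial-like state and less of these transcripts per cell cannot be told apart.

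Of 14 tested mesenchymal genes 2 were called higher and none lower (14.3%, against 8.85% higher over all genes). Among the 12 markers of MDA-MB-231 and other mesenchymal-like basal lines, 5 were called higher and none lower. MSN (moesin, which links actin to the membrane) was at 201 to 311 RPKM in the AURKA clones (median 254) and 109, 108 and 106 RPKM in the control lines (log2 difference 1.24 ± 0.15, adjusted p = 0.000699), and FN1 (fibronectin) at 4.53 to 28.4 RPKM in the AURKA clones (median 8.57) and 1.61, 1.29 and 1.42 RPKM in the control lines (adjusted p = 0.002498). The highest FN1 value, of NES-AURKA c1, rested on library F at 77.9 RPKM, with 3.77 and 3.59 RPKM in its libraries S and T. FN1 was also called without library F (adjusted p = 0.00312). VIM (vimentin) was at 355 to 899 RPKM in the AURKA clones (median 529) and 320.0, 308 and 325 RPKM in the control lines and did not pass the test (adjusted p = 0.114), although it did with the construct signal as a covariate (log2 difference 0.78, adjusted p = 0.0468). MSN lies on the X chromosome, within the run of neighbouring genes described further on.

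Cholesterol synthesis and uptake genes, the targets of the SREBP transcription factors, were shifted upward. Of 24 tested members 11 were called higher (45.8%, against 8.85% of all genes) and none lower, with a median log2 difference of 0.46. MSMO1, a sterol demethylation enzyme, was at 32.02 to 80.6 RPKM in the AURKA clones (median 49.6) and 21.3, 20.3 and 19.3 RPKM in the control lines (adjusted p = 0.00835), STARD4, a sterol carrier, at 9.91 to 16.3 RPKM in the AURKA clones (median 11.3) and 6.73, 6.79 and 6.37 RPKM in the control lines (adjusted p = 0.00605), and IDI1, an isoprenoid isomerase, at 18.6 to 22.6 RPKM in the AURKA clones (median 20.6) and 12.4, 12.6 and 12.5 RPKM in the control lines (adjusted p = 0.000869). The count rested on the libraries and lines used: 4 members were called without any 1 control line, 9 in the I to Z libraries and 1 in the A to H libraries. The highest MSMO1 value rested on library F of NES-AURKA c1, at 145 RPKM.

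Signalling genes moved in both directions within most pathways. Of 24 tested Wnt pathway genes 8 were called higher (33.3%) and 6 lower (25%), against 8.85% and 10.4% of all genes. FZD1, a Wnt receptor, was at 4.94 to 10.4 RPKM in the AURKA clones (median 6.63) and 1.84, 1.93 and 1.92 RPKM in the control lines. FZD1 differed by 1.42 ± 0.20 on the log2 scale (adjusted p = 0.00151). FZD4 was at 2.45 to 8.04 RPKM in the AURKA clones (median 5.22) and 1.13, 1.21 and 1.17 RPKM in the control lines and WNT5A, a non-canonical ligand, at 0.221 to 1.803 RPKM in the AURKA clones (median 0.887) and 0.0385, 0.0215 and 0.03504 RPKM in the control lines. In the same list ROR1, a WNT5A receptor, was at 4.54 to 7.91 RPKM in the AURKA clones (median 5.02) and 8.899, 9.36 and 8.99 RPKM in the control lines, lower in each clone. The calls for FZD4, WNT5A and ROR1 (adjusted p = 0.0231, 0.0184 and 0.0263) were each lost when any 1 control line was left out, with an adjusted p of up to 0.0881, 0.0765 and 0.106. Of 30 TGF-beta and BMP pathway genes 5 were called lower (16.7%) and 1 higher (3.33%). ID2, an inhibitor of differentiation induced by BMP signals, was at 0.368 to 1.84 RPKM in the AURKA clones (median 1.11) and 4.97, 8.403 and 7.75 RPKM in the control lines (log2 difference -1.96 ± 0.25, adjusted p = 0.000979), and GDF15, a stress-induced ligand, at 9.85 to 33.7 RPKM in the AURKA clones (median 19.6) and 58.6, 55.98 and 64.9 RPKM in the control lines. GDF15 differed by -1.78 ± 0.32 on the log2 scale (adjusted p = 0.00475). TGFBR3, the betaglycan co-receptor, was at 2.58 to 3.599 RPKM in the AURKA clones (median 3.08) and 4.602, 5.33 and 5.53 RPKM in the control lines (adjusted p = 0.00396). AREG, an EGF receptor ligand, was at 22.4 to 65.7 RPKM in the AURKA clones (median 52.03) and 144, 139 and 128 RPKM in the control lines (adjusted p = 0.00714) and was the single member called among 6 EGF receptor ligands. Among 29 tested G-protein-coupled receptors with GPR or ADGR symbols 8 were called higher (27.6%) and 1 lower (3.45%). GPR39, a zinc-sensing receptor, was at 2.304 to 4.27 RPKM in the AURKA clones (median 3.79) and 1.24, 1.25 and 1.12 RPKM in the control lines (adjusted p = 0.00117).

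Genes of matrix remodelling and the cell surface changed member by member. MMP14, the membrane-type collagenase, was at 44.1 to 122 RPKM in the AURKA clones (median 66.01) and 21.7, 24.3 and 22.7 RPKM in the control lines. MMP14 differed by 1.65 ± 0.28 on the log2 scale (adjusted p = 0.00396). Its relatives MMP15, at 1.57 to 2.33 RPKM in the AURKA clones (median 1.8997) and 5.57, 6.76 and 6.64 RPKM in the control lines (log2 difference -1.32 ± 0.11, adjusted p = 0.0001001), and MMP24, at 0.138 to 0.377 RPKM in the AURKA clones (median 0.302) and 2.17, 2.74 and 1.89 RPKM in the control lines (adjusted p = 8.91e-05), moved the other way, so the 10 metalloproteinases and inhibitors tested counted 2 higher and 2 lower. LAMA4, a laminin chain of vessel basement membranes, was at 1.63 to 6.98 RPKM in the AURKA clones (median 2.51) and 0.257, 0.235 and 0.187 RPKM in the control lines (adjusted p = 0.001298), its highest value resting on library F of NES-AURKA c1, and LAMA1, an embryonic laminin chain, was lower at 0.0996 to 0.564 RPKM in the AURKA clones (median 0.233) and 1.13, 1.69 and 1.84 RPKM in the control lines (adjusted p = 0.0009904). PLAUR, the urokinase receptor, was at 13.8 to 20.1 RPKM in the AURKA clones (median 15.5) and 7.31, 8.098 and 7.31 RPKM in the control lines. PLAUR differed by 0.96 ± 0.11 on the log2 scale (adjusted p = 0.000549). ITGB3, the integrin beta-3 chain, was at 0.898 to 1.58 RPKM in the AURKA clones (median 1.15) and 4.03, 4.28 and 5.13 RPKM in the control lines (adjusted p = 0.000149). SEMA3A, a secreted guidance cue, was at 4.73 to 11.3 RPKM in the AURKA clones (median 6.404) and 1.94, 1.52 and 1.24 RPKM in the control lines (adjusted p = 0.000969). Of 22 matricellular and basement membrane genes 5 were called higher (22.7%) and 2 lower (9.09%), against 8.85% and 10.4% of all genes. Of 14 plasminogen and serpin genes 2 were called in each direction (14.3%), and of 19 proteoglycan and hyaluronan genes 4 (21.1%). Of 15 integrins 2 were called higher and 1 lower (13.3% and 6.67%). The counts were 4 and 2 of 19 semaphorins and plexins (21.1% and 10.5%), and 3 and 1 of 13 collagens (23.1% and 7.69%).

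More immune and inflammatory genes were called higher than lower in most lists. Of 40 tested interferon-stimulated genes 11 were called higher (27.5%) and 3 lower (7.5%), against 8.85% and 10.4% of all genes. BST2 (tetherin, which holds virions at the cell surface) was at 40.4 to 93.6 RPKM in the AURKA clones (median 74.1) and 6.13, 9.03 and 14.8 RPKM in the control lines. BST2 differed by 2.73 ± 0.32 on the log2 scale (adjusted p = 0.000629). OAS2, a sensor of double-stranded RNA, was at 2.298 to 6.299 RPKM in the AURKA clones (median 3.14) and 0.323, 0.927 and 0.946 RPKM in the control lines (adjusted p = 0.00396), IFI44 at 6.12 to 16.3 RPKM in the AURKA clones (median 7.81) and 1.47, 3.32 and 2.202 RPKM in the control lines (adjusted p = 0.00542) and SAMD9, an antiviral factor, at 6.78 to 15.6 RPKM in the AURKA clones (median 11.9) and 2.97, 3.67 and 2.9998 RPKM in the control lines (adjusted p = 0.00354). IFI27, one of the 3 called lower, was at 1.74 to 4.998 RPKM in the AURKA clones (median 1.87) and 7.15, 10.7 and 8.78 RPKM in the control lines (adjusted p = 0.00463). All 3 called among 8 MHC class II genes were higher, with HLA-DRA at 2.502 to 22.2 RPKM in the AURKA clones (median 12.1) and 0.112, 0.283 and 0.336 RPKM in the control lines (adjusted p = 0.00596) and its invariant chain CD74 at 5.72 to 40.4 RPKM in the AURKA clones (median 24.9) and 1.03, 2.67 and 2.28 RPKM in the control lines (adjusted p = 0.00507). The leukocyte marker PTPRC was under 0.5 RPKM in the same libraries, and the part of other cells in these differences was not tested. Of 19 NF-kB pathway genes 6 were called higher and none lower, with PTGS2 (cyclooxygenase-2) at 1.66 to 4.51 RPKM in the AURKA clones (median 2.93) and 0.254, 0.847 and 0.603 RPKM in the control lines (adjusted p = 0.004203) and TRAF1 at 2.36 to 4.601 RPKM in the AURKA clones (median 4.09) and 1.93, 1.76 and 1.89 RPKM in the control lines (adjusted p = 0.007695). For PTGS2, NES-AURKA c1 was at 4.24 RPKM, and at 0.859 RPKM without library F. NLS-AURKA c2 and c3 also fell by over 1.5 times for PTGS2 without libraries H and B. The PTGS2 call was lost in the A to H libraries (adjusted p = 0.0506). Of 20 interleukins and chemokines 3 were called in each direction: IL1B was at 2.76 to 6.38 RPKM in the AURKA clones (median 3.59) and 0.252, 0.374 and 0.397 RPKM in the control lines (adjusted p = 0.00103), and CXCL16, a membrane-bound chemokine, at 0.348 to 0.814 RPKM in the AURKA clones (median 0.411) and 3.84, 4.81 and 5.29 RPKM in the control lines. CXCL16 differed by -1.87 ± 0.11 on the log2 scale (adjusted p = 1.11e-05). IL18 was at 12.2 to 22.2 RPKM in the AURKA clones (median 17.8) and 36.3, 34.1 and 34.9 RPKM in the control lines (adjusted p = 0.00401). Single A to H libraries raised IL1B in some clones, with NLS-AURKA c2 at 3.43 RPKM and at 0.997 RPKM without library H.

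Genes of mitosis, where Aurora-A itself acts, were called higher at a share near that of all genes, and G1 genes at a greater share. Of 40 tested mitosis genes 4 were called higher (10%) and 1 lower (2.5%), against 8.85% and 10.4% of all genes. FOXM1, the transcription factor that drives G2 and mitotic genes, was at 16.002 to 30.1 RPKM in the AURKA clones (median 24.5) and 10.8, 11.3 and 11.8 RPKM in the control lines (log2 difference 0.98 ± 0.17, adjusted p = 0.00396), while MYBL2, which activates genes of the same phase, was at 6.01 to 9.77 RPKM in the AURKA clones (median 8.75) and 17.7, 20.8 and 20.1 RPKM in the control lines. MYBL2 differed by -1.14 ± 0.13 on the log2 scale (adjusted p = 0.000687). ANLN, which scaffolds the cytokinetic ring, was at 52.4 to 69.9 RPKM in the AURKA clones (median 59.4) and 36.5, 42.8 and 34.7 RPKM in the control lines (adjusted p = 0.00405). G1 cyclins and CDK inhibitors had 7 of 21 members higher (33.3%) and 1 lower, among them CDKN2C, an inhibitor of CDK4 and CDK6, at 7.02 to 12.5 RPKM in the AURKA clones (median 10.8) and 4.26, 5.77 and 5.17 RPKM in the control lines (adjusted p = 0.00486), and CCND3 (cyclin D3) at 11.6 to 17.3 RPKM in the AURKA clones (median 12.8) and 8.79, 8.698 and 10.02 RPKM in the control lines (adjusted p = 0.00662). The call of CCND3 was lost without library E of Empty or library G of NLS-Empty, with an adjusted p of up to 0.0664. In the A to H libraries the calls of FOXM1, CDKN2C, ANLN and CCND3 were lost (adjusted p = 0.111, 0.0572, 0.0561 and 0.0592), and in the I to Z libraries those of ANLN and CCND3 (adjusted p = 0.128 and 0.274). Of 33 DNA replication genes 2 were called higher and 3 lower.

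Line values of AURKA itself overlapped between the arms. It was at 37.03, 13.5, 31.9, 24.6, 66.5 and 51.9 RPKM in WT-AURKA c1, WT-AURKA c2, NES-AURKA c1, NES-AURKA c2, NLS-AURKA c2 and NLS-AURKA c3, in that order, and at 61.6, 59.6 and 49.9 RPKM in the control lines, a log2 difference of -0.86 ± 0.39 (adjusted p = 0.145). The WT-AURKA c1 value rested on library D at 84.1 RPKM, with 14.1 and 12.8 RPKM in its libraries O and P. Without NLS-AURKA c2, AURKA was called lower in the clones (log2 difference -1.06, adjusted p = 0.0479). The symbol sums reads of the cDNA and of the edited gene, and the sign of the difference turned to 0.23 in the A to H libraries (adjusted p = 0.745). AURKB, its closest relative, was at 15.9 to 23.6 RPKM in the AURKA clones (median 20.1) and 20.3, 21.3 and 19.3 RPKM in the control lines, and TPX2 at 85.2 to 112 RPKM in the AURKA clones (median 95.6) and 88.9, 94.1 and 85.9 RPKM in the control lines. Neither passed the test (adjusted p = 0.911 and 0.473), and the sign of both differences turned in some of the alternatives given in the closing section.

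The remaining lists had fewer calls or split directions, read against a background of 8.85% higher and 10.4% lower. Zinc finger genes had 16 of 378 higher and 32 lower, and solute carriers 12 of 162 higher and 19 lower. Glucose uptake and glycolysis genes had 6 of 22 higher and 2 lower, with PFKM, a glycolytic control enzyme, at 6.81 to 8.42 RPKM in the AURKA clones (median 7.403) and 5.21, 5.41 and 4.52 RPKM in the control lines (adjusted p = 0.00566). Hypoxia target genes had none of 23 higher and 4 lower. Metallothioneins (4 tested), HOX genes (3) and histone genes (28) had no call, the ATF4 and unfolded protein response list 1 of 24 higher and the NRF2 list 1 of 17 higher. Immune checkpoint and surface ligands had 5 of 21 higher and 3 lower, and 16 genes of class I antigen presentation 3 higher. ABCG2, a drug efflux pump, was at 0.429 to 1.82 RPKM in the AURKA clones (median 1.06) and 4.81, 6.51 and 5.65 RPKM in the control lines (log2 difference -1.69 ± 0.20, adjusted p = 0.000739), the single call among 6 such transporters. ALDH1A3, an enzyme of retinoic acid synthesis, was at 0.348 to 1.07 RPKM in the AURKA clones (median 0.756) and 2.04, 2.19 and 1.73 RPKM in the control lines (adjusted p = 0.00396). Among 12 protocadherins 4 were called higher, and PCDH7 was at 0.359 to 1.30 RPKM in the AURKA clones and listed at 0 in each control line (adjusted p = 0.00913).

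**Figure D2:**
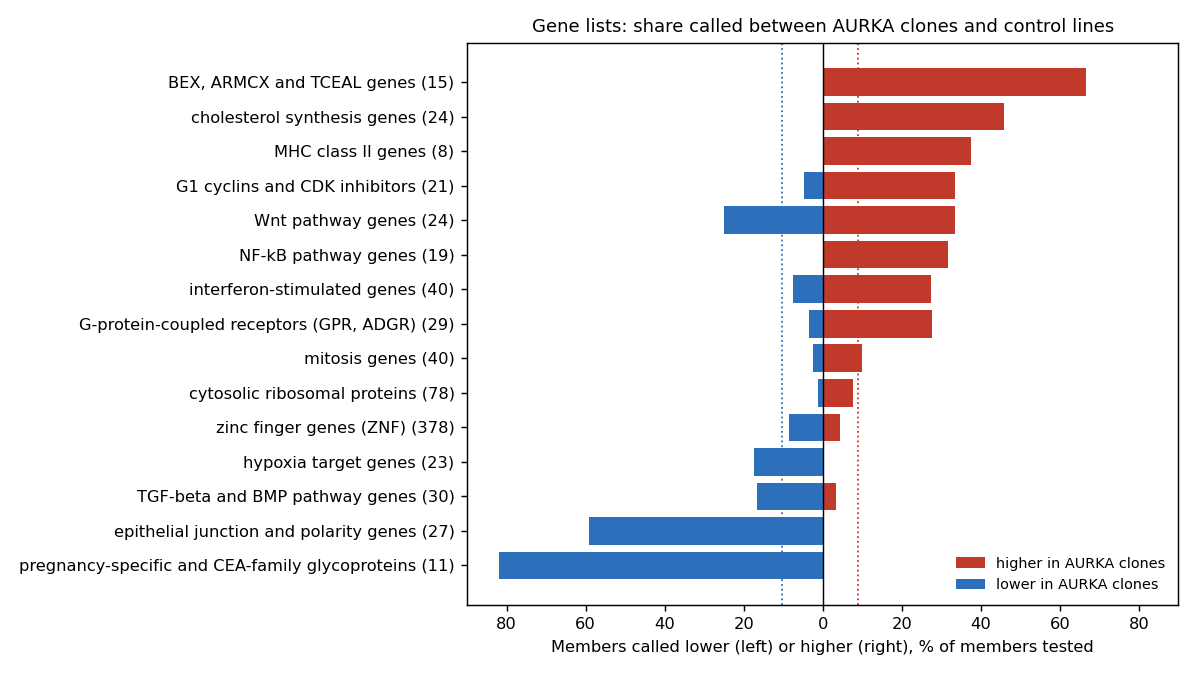
Share of tested members called higher (right, red) or lower (left, blue) in the AURKA clones for 15 gene lists, with the number tested in brackets and dotted lines at the shares over all genes (8.85% and 10.4%). The BEX, ARMCX and TCEAL list stands out on the right and the epithelial and pregnancy-specific lists on the left, while the bars of ribosomal proteins and zinc finger genes end inside both dotted lines.

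The called genes were unevenly spread over the chromosomes, a property the comparison did not use. RefSeq gene names placed 11457 of the 12589 tested genes (91.0%) on an autosome or the X. Genes called higher made up 33.1% of the tested genes of chromosome 9, 27.8% of chromosome 4, 25.1% of the X, 17.7% of chromosome 7, 16.4% of chromosome 21 and 15.3% of chromosome 12, against 9.25% over all placed genes. These 6 chromosomes carried 22.3% of the placed genes and 582 of the 1060 placed genes called higher (54.9%), but 112 of the 1218 called lower. In the other direction, genes called lower made up 26.8% of chromosome 5, 18.8% of chromosome 10, 16.4% of chromosome 3 and 15.5% of chromosome 14, against 10.6% over all placed genes. The median log2 difference over a chromosome's tested genes was 0.37 on the X, 0.27 on chromosome 9, 0.20 on chromosome 4, 0.19 on chromosome 7 and 0.13 on chromosome 12, and -0.21 on chromosome 5, -0.19 on chromosome 20 and -0.12 on chromosome 3. The 6 chromosomes and the runs below were chosen after the values were seen, so they are described without a test.

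Line by line, some chromosome medians were shared by all clones and others by the clones of a construct. For each clone the difference was taken from the mean of the control lines, and for each control line from the mean of the other control lines. On chromosome 9 the 6 clones lay between 0.24 and 0.31, above NLS-Empty at -0.04, NES-Empty at -0.08 and Empty at 0.12. On chromosome 5 they lay between -0.38 and -0.08, below control lines at -0.02 to 0.04. On the X the WT-AURKA clones were at 0.62 and 0.62, the NES-AURKA clones at 0.46 and 0.40 and the NLS-AURKA clones at 0.02 and -0.01, with the control lines between -0.01 and 0.01. On chromosome 18 the NLS-AURKA clones were at 0.32 and 0.38, the other clones at -0.16 to -0.12, and the control lines themselves at -0.10 to 0.19. On chromosome 20 the NLS-AURKA clones were at -0.37 and -0.37 and the other clones at -0.10 to -0.001. On chromosome 10 NES-AURKA c1 was at -0.39 and NES-AURKA c2 at -0.005. The 2 WT-AURKA clones differed by at most 0.05 on any chromosome and the 2 NLS-AURKA clones by at most 0.06, while the 2 NES-AURKA clones differed by up to 0.38, on chromosome 10. Between control lines the widest difference was 0.30, on chromosome 18.

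**Figure D3:**
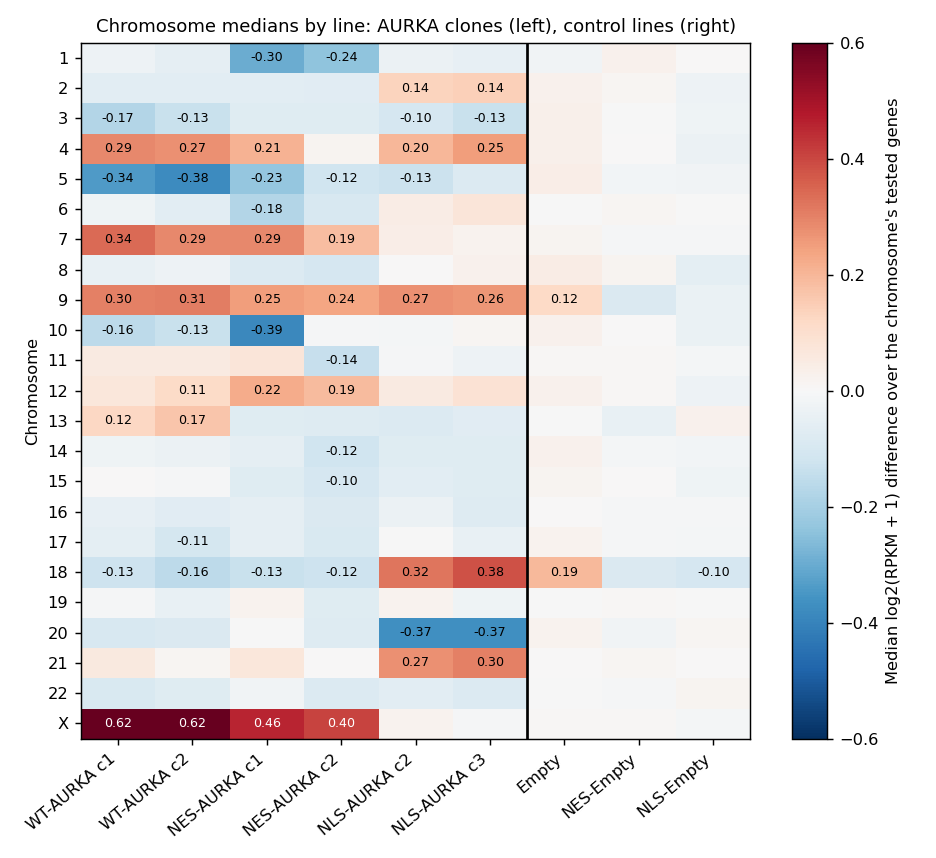
Median log2(RPKM + 1) difference of the tested genes of each chromosome (rows) in each line (columns), AURKA clones left and control lines right of the black line, with values of 0.1 or more in size printed. Chromosome 9 is red in all 6 clones, the X in the WT-AURKA and NES-AURKA clones, and chromosomes 18 and 21 in the NLS-AURKA clones.

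Within chromosomes the shifts ran along stretches of neighbouring genes. In the run of 31 neighbouring tested genes from PHF8 to PDZD11 on the X, 28 were called higher and none lower, with a median log2 difference of 0.77. All 6 clones shared this run, with medians of 0.69 to 0.93, against -0.02 to 0.02 in the control lines. PAGE5, MAGED2, SPIN2B, MAGEH1, STARD8 and MSN had the largest gaps in it. Over the 222 tested genes after it, the medians stayed at 0.78 and 0.81 in the WT-AURKA clones and at 0.50 and 0.53 in the NES-AURKA clones, and were 0.03 and 0.003 in the NLS-AURKA clones. Over the 154 genes before it they were 0.06 and 0.08 in the WT-AURKA clones, 0.36 and 0.16 in the NES-AURKA clones and -0.11 and -0.15 in the NLS-AURKA clones. The run was higher in all 6 clones, and the stretch after it in 4 of them.

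On chromosome 5 the 31 genes from EXOC3 to FAM134B held 24 called lower and none higher, with a median of -0.55 and clone medians of -0.66 to -0.45. On chromosome 4 the run from HERC6 to INTS12 held 19 called higher and none lower, with clone medians of 0.45 to 0.55 except NES-AURKA c2 at 0.17. The interferon-stimulated gene HERC6 opens that run, at 2.76 to 4.17 RPKM in the AURKA clones (median 2.91) and 1.03, 1.31 and 1.14 RPKM in the control lines. On chromosome 9 the run from NUP214 to RXRA held 18 higher and none lower, on chromosome 7 that from SEMA3A to BET1 14 higher and none lower, and on chromosome 21 that from H2BFS to PRMT2 14 higher and none lower. The chromosome 7 run includes GNG11, FZD1, SEMA3A and SAMD9, each described above with its list. In the lower direction the run from HTR7 to ARHGAP19 on chromosome 10 held 14 lower and none higher, and that from LGALS3 to SNAPC1 on chromosome 14 held 13 lower and 2 higher. For the X, chromosome 5 and chromosome 4 runs, the medians were 0.70, -0.44 and 0.49 in the A to H libraries and 0.75, -0.63 and 0.37 in the I to Z libraries.

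**Figure D4:**
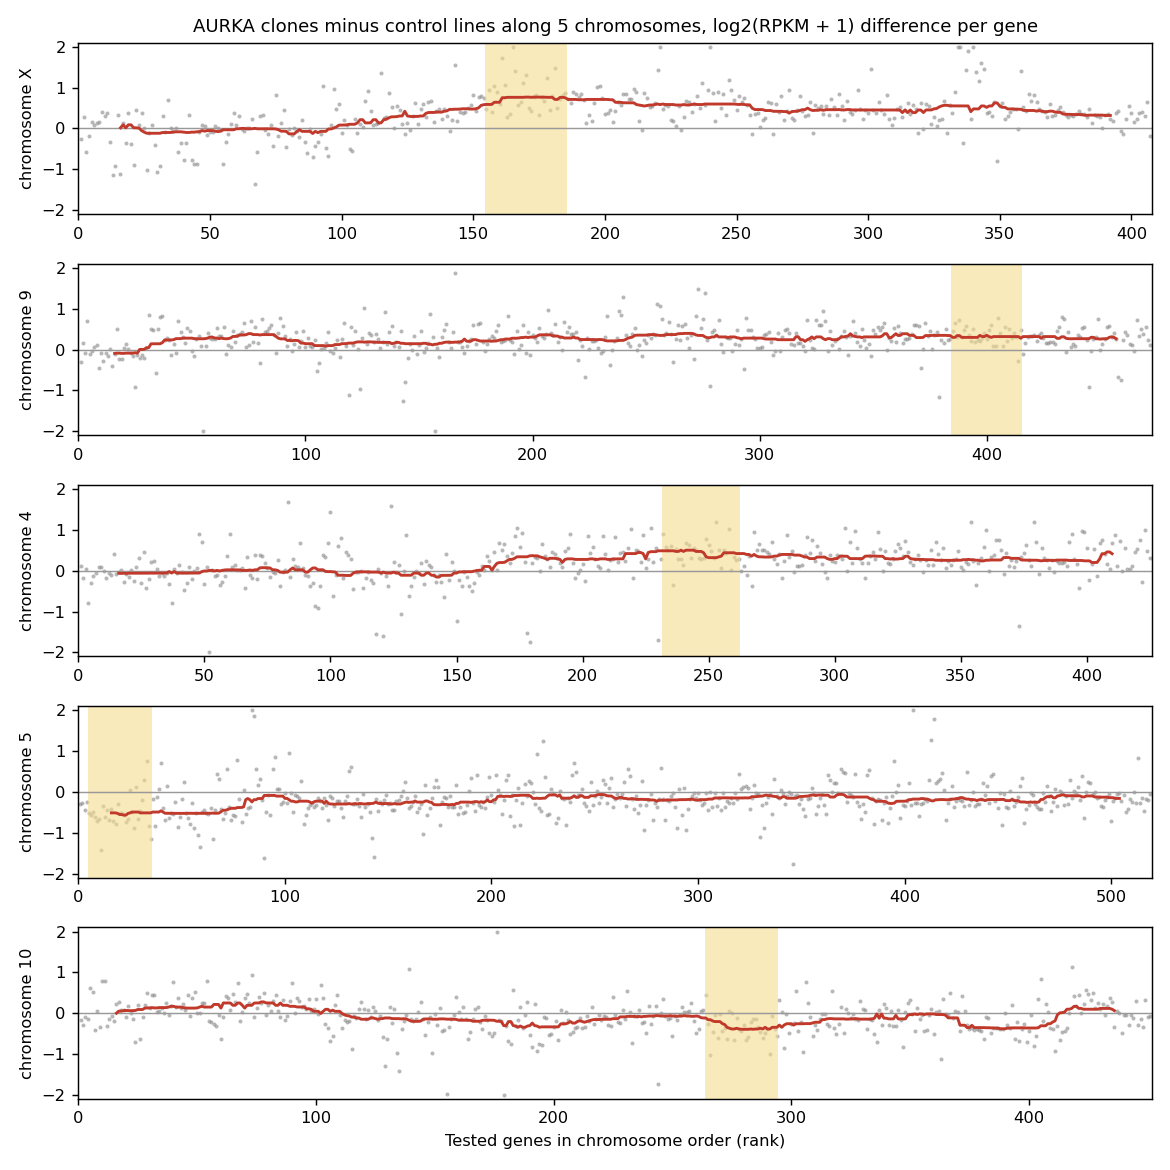
Log2(RPKM + 1) difference between AURKA clones and control lines for each tested gene (grey points, drawn at -2 or 2 where larger) in chromosome order on the X and chromosomes 9, 4, 5 and 10, with the running median of 31 genes in red and the run named in the text shaded. The red line rises above 0 part of the way along the X and chromosome 4, stays above 0 along most of chromosome 9 and below 0 along most of chromosome 5.

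Subunits of large complexes, which the cell makes in fixed proportion, showed the same unevenness. Among 78 tested cytosolic ribosomal proteins 6 were called higher (7.69%) and 1 lower (1.28%), against 8.85% and 10.4% of all genes. The higher ones were RPS4X on the X, RPL7A, RPS6 and RPL35 on chromosome 9 and RPL34 and RPS3A on chromosome 4, and the lower one was RPL37 on chromosome 5. RPS4X was at 349 to 511 RPKM in the AURKA clones (median 377) and 193, 193 and 189.5 RPKM in the control lines (log2 difference 1.03 ± 0.15, adjusted p = 0.00177), RPL7A at 423 to 491 RPKM in the AURKA clones (median 470.0) and 329.7, 298 and 282 RPKM in the control lines (adjusted p = 0.00449) and RPS6 at 278 to 361 RPKM in the AURKA clones (median 348) and 216, 171 and 176 RPKM in the control lines (adjusted p = 0.00405). Ribosomal protein genes have many processed copies in the genome, so read assignment is uncertain for them. Of 37 proteasome subunits 3 were called higher and 2 lower, PSMD5 on chromosome 9 being at 15.6 to 17.1 RPKM in the AURKA clones (median 16.4) and 12.2, 11.5 and 10.9 RPKM in the control lines (adjusted p = 0.00375). Of 37 tested NDUF genes of complex I 2 were called higher and 6 lower, the lower ones including NDUFS6 and NDUFS4 on chromosome 5. Calls of RPL34, RPS3A, RPL37, NDUFS6 and NDUFS4 were each lost with at least 1 control line left out, with an adjusted p of up to 0.101, 0.189, 0.080996, 0.128 and 0.1296. The RPS3A call was also lost when any of 16 single libraries was left out, and that of NDUFS4 with any of 9. Those of RPL7A, RPS6 and PSMD5 were lost in the A to H libraries (adjusted p = 0.108, 0.165 and 0.0617).

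Several genes with the widest range over the clones split the NLS-AURKA clones from the WT-AURKA and NES-AURKA clones. That split is also one of guide and cDNA tag, so the signal cannot be told apart from these. PAGE5, a cancer-testis gene on the X, was at 76.6, 80.8, 58.98, 46.9, 2.62 and 2.63 RPKM in WT-AURKA c1, WT-AURKA c2, NES-AURKA c1, NES-AURKA c2, NLS-AURKA c2 and NLS-AURKA c3, against 0, 0.0317 and 0 RPKM in the control lines. PAGE5 differed by 4.53 ± 1.10 on the log2 scale (adjusted p = 0.0188). SPANXB1, another X-linked cancer-testis gene with near-identical copies, was likewise highest in the WT-AURKA and NES-AURKA clones, at 796, 748, 634, 645, 74.1 and 62.3 RPKM in the same order of clones, against 33.5, 45.02 and 8.31 RPKM in the control lines. KISS1, the precursor of kisspeptin and a metastasis suppressor, was highest in the NLS-AURKA clones, with 36.3, 45.7, 42.7, 12.1, 303 and 259 RPKM over the 6 clones in that order and 2.99, 4.03 and 5.77 RPKM in the control lines. The calls for PAGE5, SPANXB1 and KISS1 (adjusted p = 0.0188, 0.0212 and 0.0167) were lost with any 1 control line left out, with an adjusted p of up to 0.0765, 0.1103 and 0.0743. Their line means do not overlap by the rule that named them, but single libraries of SPANXB1 and KISS1 did: for KISS1, library D of WT-AURKA c1 had 4.18 RPKM and library N of NLS-Empty 9.09 RPKM.

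Lower genes with the widest range over the clones were lowest in the NLS-AURKA clones. S100P, a calcium-binding protein of invasive carcinomas, was at 14.7, 16.3, 19.2, 43.6, 0.7105 and 1.04 RPKM in the clones, taken in the same order, with 131, 132 and 148 RPKM in the control lines (adjusted p = 0.00999). TNS4, a tensin of focal adhesions, was at 4.87, 4.73, 13.4, 12.1, 0.0949 and 0.0516 RPKM in the same clones, with 35.98, 48.9 and 53.4 RPKM in the control lines. UCA1, a long non-coding RNA, was at 3.63, 2.21, 8.13, 26.5, 0.247 and 0.131 RPKM in those clones, with 28.7, 46.1 and 29.8 RPKM in the control lines. For these 3 genes, and also for HKDC1 and RP11-301G19.1, both NLS-AURKA clones lay below the other 4 clones. The UCA1 value of NES-AURKA c2 rested on library A at 72.7 RPKM, with 2.51 and 4.35 RPKM in its libraries U and V. The UCA1 call was lost in the A to H libraries (adjusted p = 0.226) and held without library A (log2 difference -3.52, adjusted p = 0.00357). The S100P value of NES-AURKA c2 rested on its library U at 89.8 RPKM. The adjusted p of S100P, TNS4 and UCA1 was 0.00999, 0.0219 and 0.0105, and up to 0.0508, 0.0904 and 0.0584 with a control line left out. RP11-301G19.1, a symbol with no annotation in the tables used, was at 0.0448 to 12.2 RPKM in the AURKA clones (median 1.13) and 39.8, 35.4 and 51.3 RPKM in the control lines (adjusted p = 0.00242). Its highest clone value rested on library A of NES-AURKA c2, at 31.6 RPKM, with 2.31 and 2.699 RPKM in libraries U and V. It missed the threshold in the A to H libraries (adjusted p = 0.0539) and was called without library A.

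**Figure D5:**
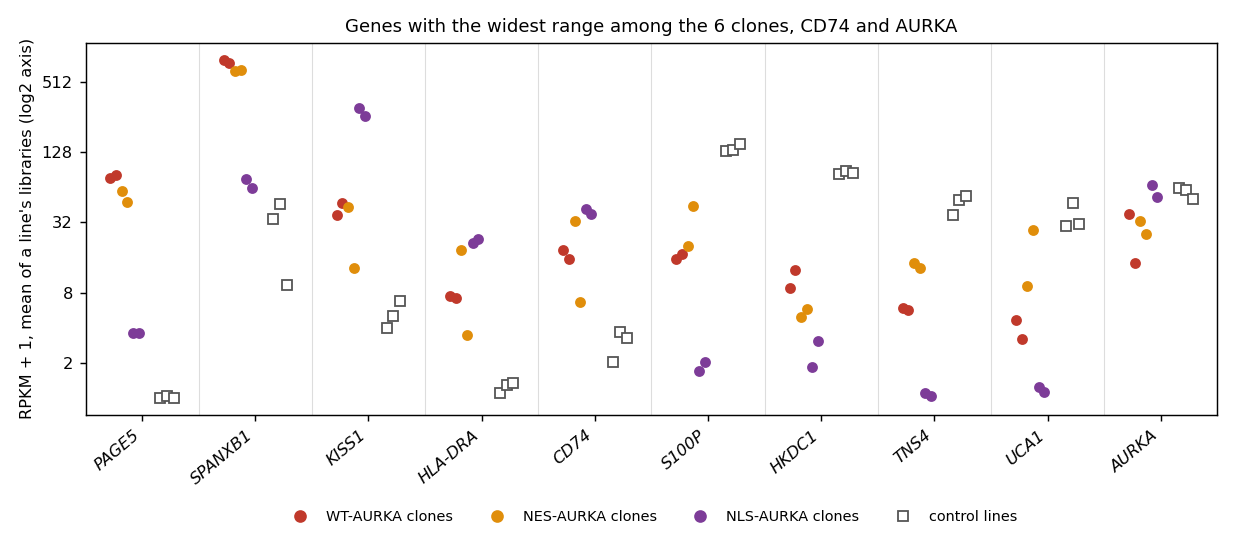
RPKM + 1 (log2 axis) of the genes with the widest range among the 6 clones, with CD74 and AURKA, drawn as in the plot of the largest gaps. PAGE5 and SPANXB1 are highest in the WT-AURKA and NES-AURKA clones, KISS1 in the NLS-AURKA clones, and S100P, HKDC1, TNS4 and UCA1 are lowest in the NLS-AURKA clones. AURKA overlaps between clones and control lines.

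The letter sets differed in the size of some differences. Of the 3638 genes without overlap, 98.3% had the same sign in the A to H and in the I to Z libraries. Since these genes were chosen on the same libraries, that share is a description and no support for the separation. A test of whether the difference itself changed between sets, on 8 lines, called 22 of the 12589 genes tested. Of the 22 genes 18 were separated, against 28.9% of all genes tested. Before adjustment, 1480 of the 12589 genes had a p under 0.05 in this test. PSG5 had a log2 difference of -4.02 in the A to H libraries and -2.08 in the others (adjusted p of the change = 0.0038), and PSG1 -3.30 and -1.56 (adjusted p = 0.00218). CDH1 had -2.96 and -0.76 (adjusted p = 0.0205), and BST2 2.08 and 3.26 (adjusted p = 0.0397). The direction of these differences was the same in both sets, and their size was not.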

How the data were processed

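RNA from 26 samples of 9 MDA-MB-231Luc lines was sequenced, with 500 ng of RNA as library input per the labels. The authors deposited 1 table of RPKM values per gene and library. HISAT2, SAMtools, Partek and the build hg19 are named in the submitters' processing notes, with no versions, and strand handling is not given in the sources used here. No header of the table states its unit: RPKM is taken from the study's description. RPKM holds no read counts, so no count test was run. Depth was estimated from the smallest steps between values in 3475 genes, and limits low genes most.

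From there, values were averaged per line as log2(RPKM + 1). Genes reaching 1 RPKM in at least 2 libraries (12589 of 33562 rows) were tested with limma 3.58.1 (R 4.3.3, mean-variance trend) between 6 AURKA clones and 3 control lines, with Benjamini-Hochberg adjustment over all genes tested, and the procedure was tested on simulated data. Whether a line's libraries are separate cultures is not stated in the labels, so lines were the replicates. Letter sets were compared by the A to H library minus the mean of the I to Z libraries in 8 lines.

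Named genes were the 15 largest gaps in each direction at 5 RPKM or more, up to 6 separated called members of each list by gap, genes near zero in 1 arm, the 5 widest ranges over clones in each direction, up to 5 genes per direction that differed between letter sets, and AURKA, AURKB, TPX2, VIM, CDH1 and EPCAM. Other subunits, marker genes and genes at the ends of runs were chosen after their values were seen. The comparison, the lists and the rules were chosen with earlier results of these data known. Alternatives were another pseudocount, filter, scaling, empirical Bayes setting, letter set and covariate, and leaving out each line or library. Gene order and promoter windows come from RefSeq (GRCh38.p14), matched by symbol. Promoters were matched for 5 of the genes searched. Some results are not reported here.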

Additional observations from a re-analysis of the deposited data

Results flagged for a closer look

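In 8 of the 98 named genes and for 1 of 23 chromosome medians, 1 of the 6 clones lay far from the other 5, with a gap to its nearest neighbour, as a share of the whole range, above Dixon's critical value. Chance gives this in about 1 group in 20 for 6 independent values. The clones come in pairs of 1 construct and the genes were named partly by gap and range, so that rate may not hold here. NES-AURKA c1 was the clone apart for 7 genes. It was lowest for SRGN (ratio 0.689) and highest for FAM49A (0.773), AQP3 (0.657), CXCL16 (0.637), OAS2 (0.701), HERC6 (0.769) and CDH1 (0.695). NES-AURKA c2 was apart for TRAF1 (0.656), where it was lowest, and for the median of chromosome 4 (0.673), which was 0.02 there and 0.20 to 0.29 in the other clones.

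For 7 named genes the difference between AURKA clones and control lines itself differed between the letter sets (limma on 8 lines). The difference in the A to H libraries minus that in the I to Z libraries was -1.86 for PSG9 (adjusted p = 0.0179), -1.95 for AC006262.5 (adjusted p = 0.0069), -1.94 for PSG5 (adjusted p = 0.0038), -1.74 for PSG1 (adjusted p = 0.00218), -1.27 for TNS4 (adjusted p = 0.0397), -2.21 for CDH1 (adjusted p = 0.0205) and -1.18 for BST2 (adjusted p = 0.0397). Each gene kept its direction in both sets.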

How the results depend on the processing

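The count of calls was lowest when a control line was left out. With 1 line left out, 915 to 2669 genes were called, 419 to 1310 of them higher and 496 to 1359 lower in the AURKA clones. The A to H libraries alone, 1 per line, gave 1455 calls (692 higher, 763 lower), and without a filter on low values 740 genes were called higher. Under every other alternative the count of calls stayed within 1.5 times 2423. With limits of 0.5 and 2 RPKM, 13 genes were near zero in 1 arm, against 5 in the main analysis. Genes separated in every library numbered 1673 in the I to Z libraries and 3331 in the A to H libraries, which have fewer libraries to separate. Of 94 named genes called, 15 lost the call when some line was left out, 5 when some library was left out, 24 in the A to H libraries, 3 in the I to Z libraries (GDF15, CCND3 and ANLN), 10 without a filter and 1 (TNS4) with a pseudocount of 0.1. None of them turned its direction. Among genes not called, VIM was called with the construct signal as a covariate and AURKA, as lower, without NLS-AURKA c2. AURKA turned to 0.23 in the A to H libraries, AURKB to -0.21 in the I to Z libraries and between -0.14 and 0.12 when lines or libraries were left out, and TPX2 to -0.0103 in the I to Z libraries and between -0.0013 and 0.18. The cause of these changes was not tested. Single libraries could not be paired between lines because the labels give no replicate numbers shared between lines. A fit with the construct signal as a covariate, which sets each clone beside the control line of the same signal, called 3026 genes (1431 higher, 1595 lower). The alternatives for lists, chromosome medians and runs were chosen after seeing the data.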
